A study of Homo sapiens with 9 samples.

Results

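The solute carriers (SLC) that move inorganic ions and metals were followed in OVCAR3, an established human cell line of high-grade serous epithelial ovarian carcinoma, after the level of CTCFL was raised or lowered. CTCFL, also called BORIS, is a testis-specific paralog of the chromatin factor CTCF that many ovarian carcinomas express. The carriers were chosen by name and not by expression. They are the protein-coding genes of families SLC4, SLC8, SLC9, SLC11, SLC12, SLC20, SLC24, SLC26, SLC30, SLC31, SLC34, SLC39, SLC40 and SLC41, which gave 88 of the 60660 genes in the count table. The adaptor SLC4A1AP, pseudogenes and antisense or divergent transcripts whose symbols only begin with these names were left out. Polyadenylated RNA was sequenced in 3 groups of 3 libraries. CTCFL-OE cells had been transiently transfected with 2 µg of the plasmid pCpGfree-vitroHBORIS and were collected 48 h afterwards, and CTCFL-KD cells had been treated with siRNAs against CTCFL. Control cells received a LacZ plasmid in its place. The methods give the CTCFL-KD RNA as coming from earlier knockdown experiments, so that the loss of CTCFL, the way the nucleic acid was delivered and the experiment cannot be told apart in that comparison. Each of the treated groups was set against the same Control libraries, so these comparisons are not independent.

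Inorganic ion carriers set the pH, volume and ion content of a cell. SLC4 and SLC26 proteins exchange bicarbonate, chloride, sulfate and other anions, SLC9 proteins exchange sodium for protons, SLC8 and SLC24 proteins expel calcium in exchange for sodium, and SLC12 proteins move chloride together with potassium or sodium. SLC20 and SLC34 proteins bring in phosphate, SLC39 (ZIP) proteins move zinc and related metals into the cytosol, SLC30 (ZnT) proteins move zinc out of it, and SLC11, SLC31, SLC40 and SLC41 proteins carry iron, copper, iron and magnesium, in that order. SLC34A2, known as NaPi2b, is a surface protein of many ovarian carcinomas and the target of antibodies made against them.

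The libraries held between 14332622 and 24490080 counts. CTCFL itself had 6, 9 and 10 counts in the Control libraries, 36, 34 and 72 under CTCFL-OE and 0, 1 and 0 under CTCFL-KD, which followed the labels in each library. Mitochondrial transcripts took 6.16% to 6.52% of the counts in Control, 7.40%, 12.4% and 14.9% in CTCFL-OE replicates 1, 2 and 3, and 7.80% to 11.8% in CTCFL-KD. CTCFL-KD replicate 1 stood apart by gene length, with short genes (1056.5 bases of exon or fewer) 0.76 log2 units above and long genes (11330 bases or more) 0.45 below the mean of all libraries. The 12 epithelial ovarian carcinoma markers summed to 5729 to 5813 CPM (counts scaled by the normalized size of each library) in Control, 5379 to 5447 under CTCFL-OE and 10185 to 17315 under CTCFL-KD, and 8 of the 12 were higher and 1, KRT7, was lower in CTCFL-KD. Markers of other cell types were lower, with 9 fibroblast genes at 27.9 to 33.6 CPM in Control, 24.76 to 44.001 under CTCFL-OE and 37.7 to 42.8 under CTCFL-KD, 7 leukocyte genes at 0.551 to 1.01, 0.958 to 1.91 and 2.90 to 4.69 CPM, and 5 endothelial genes at 8.20 to 9.13, 10.97 to 11.99 and 11.1 to 19.9 CPM. COL1A2 had no counts in any Control library and 156, 239 and 247 counts in CTCFL-KD, COL3A1, DCN, CD3E and CD68 were also at 0 throughout Control, and CD68 and ITGAM were at 0 throughout CTCFL-KD. The part of these marker differences in the results on the carriers was not tested.

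Promoter sequence was given for 73 of the 88 carriers, as the 250 bases before and 50 bases after the start that RefSeq lists (GRCh38.p14). The longest stretch free of exons before that start is printed for 6 carriers described further on. SLC9A9, a scarce carrier, is shown because it had the largest rise in CTCFL-KD, and SLC26A2 because it had the largest fall of an abundant carrier there. SLC8A1 is shown because it rose in CTCFL-OE, and SLC31A1, SLC39A11 and SLC40A1 because they rose in CTCFL-KD and hold letters that were searched for. The capitals mark matches on either strand to AGGGGGC, a core of the motif that CTCF and CTCFL share, or to TGCGCNC, the core of the metal response element. SLC26A2 and SLC31A1 lie on the plus strand and the other 4 on the minus strand, and each is written 5′ to 3′ in the direction of the gene. The RefSeq starts of SLC8A1 and SLC40A1 lie inside the spans that GENCODE gives these genes, so the stretches printed for them are intronic in longer transcripts.
SLC9A9, sodium-proton exchanger of endosomes, chr3:143848486-143848718: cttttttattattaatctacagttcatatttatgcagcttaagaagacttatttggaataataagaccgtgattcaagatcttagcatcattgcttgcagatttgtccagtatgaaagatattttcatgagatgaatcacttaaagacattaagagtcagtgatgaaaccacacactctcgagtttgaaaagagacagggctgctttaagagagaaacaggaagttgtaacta
SLC26A2, sulfate carrier, chr5:149960508-149960757: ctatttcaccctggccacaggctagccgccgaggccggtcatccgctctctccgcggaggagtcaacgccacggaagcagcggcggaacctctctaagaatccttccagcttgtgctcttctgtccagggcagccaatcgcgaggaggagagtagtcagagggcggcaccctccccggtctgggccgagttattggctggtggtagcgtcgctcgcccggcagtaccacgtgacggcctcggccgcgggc
SLC8A1, sodium-calcium exchanger, chr2:40512437-40512685: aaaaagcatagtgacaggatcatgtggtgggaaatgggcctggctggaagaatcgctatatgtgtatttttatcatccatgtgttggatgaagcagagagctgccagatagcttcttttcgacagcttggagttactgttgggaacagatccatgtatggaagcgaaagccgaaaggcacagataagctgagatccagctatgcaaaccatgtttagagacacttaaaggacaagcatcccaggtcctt
SLC31A1, copper uptake, chr9:113221459-113221543: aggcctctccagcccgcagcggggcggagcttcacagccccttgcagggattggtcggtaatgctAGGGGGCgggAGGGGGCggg
SLC39A11, zinc carrier, chr17:73092713-73092938: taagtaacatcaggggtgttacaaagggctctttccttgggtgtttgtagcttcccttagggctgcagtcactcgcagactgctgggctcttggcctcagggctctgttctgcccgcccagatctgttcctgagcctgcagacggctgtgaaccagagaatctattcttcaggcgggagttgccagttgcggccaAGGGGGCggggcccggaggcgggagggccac
SLC40A1, iron export, chr2:189580787-189581036: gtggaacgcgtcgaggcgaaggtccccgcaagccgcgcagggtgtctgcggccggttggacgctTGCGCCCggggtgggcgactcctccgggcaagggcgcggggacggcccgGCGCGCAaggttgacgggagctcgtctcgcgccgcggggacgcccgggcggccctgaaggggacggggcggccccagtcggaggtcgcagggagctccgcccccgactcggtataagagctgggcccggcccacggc
In the 250 bases before the start, AGGGGGC was present in 13 of the 73 carrier promoters (17.8%) and in 16.9% of the promoters of 15841 protein-coding genes, and AGGTGGC, the other form of the core, in 6.85% and 6.04%. The metal response cores TGCACNC and TGCGCNC were found in 8.22% and 19.2% of the carrier promoters against 9.78% and 21.9% of all. The median GC content was 61.2% in the carriers and 62.4% in all. These letters do not show whether a factor is bound.

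Of the 88 carriers, 67 had enough counts to be tested and 21 had not. The latter included SLC34A1, SLC30A8 and SLC39A12, carriers known from kidney, pancreatic islet and brain, which had no count in any of the 9 libraries. SLC12A1, the sodium-potassium-chloride cotransporter of the kidney, had 0, 0 and 0 counts in Control, 2, 0 and 0 under CTCFL-OE and 4, 5 and 5 under CTCFL-KD. It was called higher in CTCFL-KD than in Control, where it was at 0, by DESeq2 (adjusted p = 0.0070) and by edgeR without the filter on low counts (adjusted p = 8.5e-04), and lower in CTCFL-OE than in CTCFL-KD by the latter (adjusted p = 0.040). SLC26A4, the chloride-iodide exchanger pendrin, had 4 to 12 counts in Control, 2 to 4 under CTCFL-OE and 1 to 8 under CTCFL-KD. The other untested carriers were SLC4A1, SLC4A9, SLC8A3, SLC9C1, SLC9C2, SLC24A2, SLC24A4, SLC24A5, SLC26A3, SLC26A5, SLC26A8, SLC30A3, SLC30A10, SLC31A2, SLC39A2 and SLC39A5. These counts limit what can be said at this depth and do not show absence.

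Per length of exon, SLC34A2 was far above every other carrier, at 183 ± 5.71 CPM per kilobase in Control (mean ± SD, n = 3 here and below), 249 ± 73.2 under CTCFL-OE and 368 ± 60.3 under CTCFL-KD. SLC39A6, a zinc importer of estrogen-responsive epithelia also called LIV-1, was next at 43.3 ± 0.644 CPM per kilobase in Control. SLC39A7 and SLC39A14, which release zinc from the endoplasmic reticulum and bring zinc, manganese and iron in from outside, followed at 22.1 ± 1.33 and 20.6 ± 0.725, a pair separated by little more than the larger of their SDs. The highest carriers over all 9 libraries in 6 of the other roles were SLC12A7 (17.4 ± 0.711 CPM per kilobase in Control), the potassium-chloride cotransporter KCC4, SLC26A2 (15.2 ± 0.693), a sulfate carrier, SLC4A2 (12.7 ± 0.670), the anion exchanger AE2, SLC30A6 (12.7 ± 1.15), a zinc carrier of the Golgi, SLC41A1 (9.69 ± 0.546), a magnesium carrier, and SLC8B1 (2.98 ± 0.145), the sodium-calcium exchanger of mitochondria. Over the 11 tested SLC39 genes and the 7 tested SLC30 genes, the plot of levels per length shows SLC39A6, SLC39A7 and SLC39A14 above every SLC30 gene in all 3 groups.

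**Figure D1:**
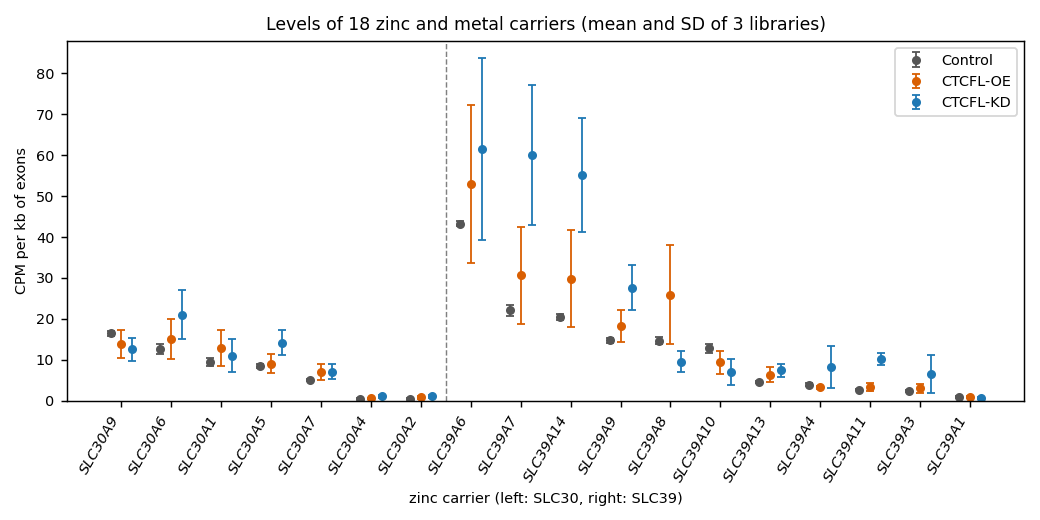
Levels of the 18 tested zinc carriers in CPM per kilobase of exon (vertical axis), SLC30 genes to the left and SLC39 genes to the right of the dashed line, as means with SD of 3 libraries for Control, CTCFL-OE and CTCFL-KD. SLC39A6 is the highest in each group, SLC39A7 and SLC39A14 are higher in CTCFL-KD, and the error bars of CTCFL-OE and CTCFL-KD are wider than those of Control for most genes.

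In CTCFL-OE, 4 carriers rose and none fell: the anion exchanger SLC26A7, the sodium-calcium exchanger SLC8A1, the sodium-bicarbonate cotransporter SLC4A4 and the sodium-proton exchanger SLC9A5. A gene was called here where its log2 fold change passed 1 in size at an adjusted p below 0.1, in a fit to all 9 libraries, and 4 of the 67 carriers tested (5.97%) were called against 2.07% of all 17794 genes tested. Counted in the higher direction alone, the share of all genes was 1.37%, and in the lower direction, where edgeR called 0 carriers, it was 0.702%. In that direction 1 carrier had an unadjusted p below 0.05, and DESeq2 called 1, SLC26A9. On adjusted p alone 5 carriers passed, all higher, against 3.15% of all genes, and 19 of the 67 (28.4%) had an unadjusted p below 0.05 where 17.7% of all genes did.

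SLC26A7 (ENSG00000147606.9, chr8:91209494-91398155, plus strand) moves chloride and other anions in kidney, stomach and thyroid epithelium. It had 15.8, 16.01 and 16.2 CPM in the Control libraries, 48.02, 39.6 and 67.2 under CTCFL-OE and 14.3, 34.4 and 43.9 under CTCFL-KD. The Control libraries were almost level, every CTCFL-OE library lay above them, and CTCFL-KD replicate 1 fell below the Control range while the other CTCFL-KD libraries lay above it. Against Control the log2 fold change of CTCFL-OE came to 1.69 ± 0.35 (± standard error, here and below), at an adjusted p of 0.049.

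SLC8A1 (ENSG00000183023.18, chr2:40097270-40611053, minus strand), the exchanger NCX1 that expels calcium across the plasma membrane, had 16.6, 17.2 and 17.1 CPM in Control, 41.5, 45.1 and 66.2 under CTCFL-OE and 13.98, 30.3 and 29.8 under CTCFL-KD. It rose by 1.59 ± 0.29 log2 units under CTCFL-OE (adjusted p = 0.031). The pattern over libraries was like that of SLC26A7, with no overlap between Control and CTCFL-OE and with CTCFL-KD replicate 1 below Control. The antisense gene SLC8A1-AS1 shares 9.15% of the SLC8A1 exon length on the opposite strand.

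SLC4A4 (chr4:71062667-71572087, plus strand), the cotransporter NBCe1 that carries sodium with bicarbonate, was scarce, with 6, 7 and 7 counts in Control, 20, 20 and 12 under CTCFL-OE and 4, 12 and 13 under CTCFL-KD. These counts corresponded to 0.309 ± 0.0419, 0.898 ± 0.154 and 0.595 ± 0.203 CPM, and the gene rose by 1.54 ± 0.36 log2 units (adjusted p = 0.069). No Control library reached the level of the filter on low counts, so SLC4A4 was tested only through the treated groups. SLC9A5 (chr16:67237683-67272191, plus strand), a sodium-proton exchanger best known from brain, was also low, at 0.601, 0.738 and 0.810 CPM in Control and 1.14, 1.99 and 2.52 in CTCFL-OE, a rise of 1.37 ± 0.34 log2 units (adjusted p = 0.083). Neither overlapped between Control and CTCFL-OE.

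The 3 carriers nearest to the threshold on the other side were SLC4A11, SLC26A9 and SLC12A3. SLC4A11, a borate-transporter homologue that conducts protons and water, passed on adjusted p but not on fold, at 0.95 ± 0.20 log2 units (adjusted p = 0.055). SLC26A9, an epithelial chloride channel, had -1.15 ± 0.31 (adjusted p = 0.11), with 1.95, 2.33 and 1.37 CPM in Control and 0.730, 0.679 and 1.17 in CTCFL-OE. SLC12A3, the thiazide-sensitive sodium-chloride cotransporter, had 1.85 ± 0.55 (adjusted p = 0.13) on libraries that spread from 1.09 to 5.84 CPM in CTCFL-OE.

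The calls in CTCFL-OE depended on single libraries. Leaving out any 1 Control library, CTCFL-OE replicate 2 or CTCFL-OE replicate 3 left 0 carriers called by edgeR (9 to 15 had an unadjusted p below 0.05), and the share called among all genes fell to between 0.24% and 0.591%. Over those 5 fits the log2 fold change of SLC26A7 ranged from 1.45 to 1.85 with adjusted p of 0.12 to 0.25, and that of SLC8A1 from 1.35 to 1.66 with adjusted p of 0.11 to 0.20. Without CTCFL-OE replicate 1 there were 10 calls, or 14.9% of the carriers tested against 6.45% of all genes. Without CTCFL-KD replicate 1, which entered the fit through the shared spread, there were 8, or 11.9% against 5.33%, with SLC12A3, SLC26A9, SLC4A10 and SLC9A2 gained.

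**Figure D2:**
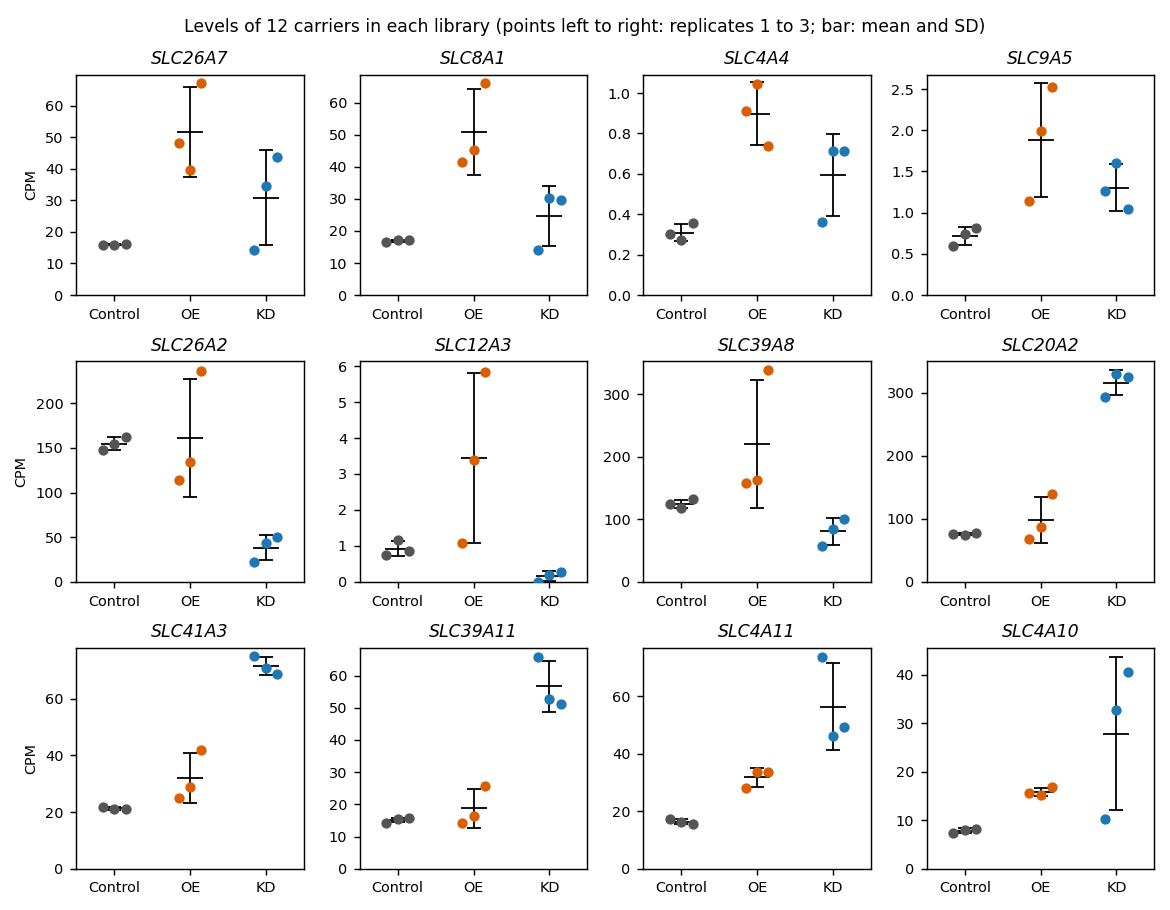
CPM (vertical axis, from 0 in each panel) of 12 carriers in each of the 9 libraries, as points with the group mean and SD. SLC26A7, SLC8A1, SLC4A4 and SLC9A5 lie higher in every CTCFL-OE library than in Control, SLC20A2, SLC41A3 and SLC39A11 lie higher in every CTCFL-KD library, and SLC26A2 lies lower in CTCFL-KD, from 22.2 to 50.01 CPM.

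Across the class, 55 of the 67 carriers had a positive log2 fold change in CTCFL-OE (82.1%, against 49.1% of all genes tested), and the median was 0.34 against -0.01 for all genes. The libraries of CTCFL-OE lay entirely above those of Control in 17 carriers (25.4%, against 16.3% of all genes) and entirely below in 2 (2.99%, against 20.8%). The 3 CTCFL-OE libraries differed among themselves. The median log2 ratio of the carriers to the Control mean was -0.07 in replicate 1, 0.31 in replicate 2 and 0.71 in replicate 3, while the median over all genes was within 0.03 of 0 in each. Replicate 3 was the highest of the CTCFL-OE libraries in 57 of 67 carriers (85.1%) and in 31.8% of all genes, and replicate 1 the lowest in 49 (73.1%) and in 40.3%. The summed level of all 88 carriers was 3268, 3304 and 3424 CPM in Control and 3136, 4017 and 5663 CPM in CTCFL-OE, so that replicate 1 was below the Control range and the others above it. The mitochondrial share of the counts took the same order over these 3 libraries, and its part in the result was not tested. Without replicate 3 the median log2 fold change of the carriers was 0.14. SLC34A2, for example, had 878, 1274 and 1616 CPM in CTCFL-OE, and SLC39A8, a zinc and manganese importer, had 158, 163 and 338, against 892, 937 and 946 and 124, 119 and 132 in Control.

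**Figure D3:**
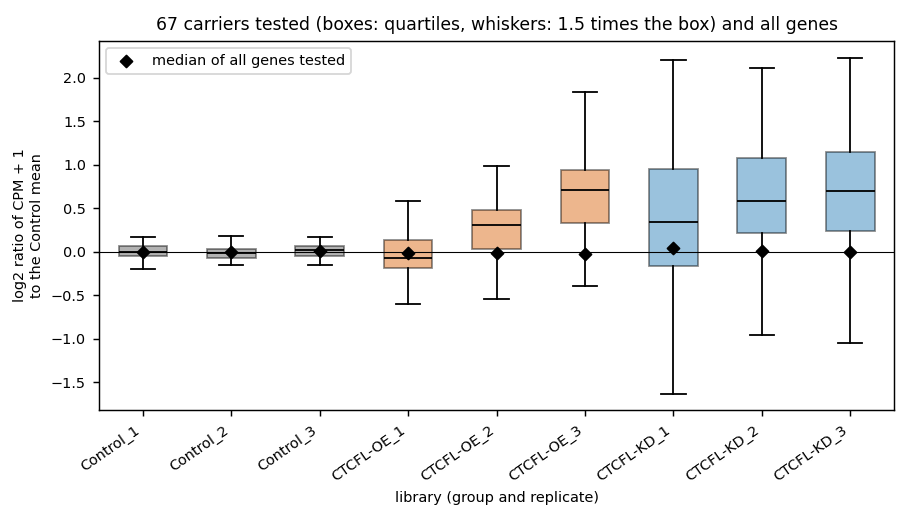
Log2 ratio of CPM + 1 to the Control mean (vertical axis) for the 67 tested carriers in each of the 9 libraries, as boxes of the quartiles with whiskers to 1.5 times the box, and the median of all genes tested as a diamond. The carrier medians are -0.07, 0.31 and 0.71 in CTCFL-OE replicates 1, 2 and 3 and 0.34, 0.59 and 0.70 in CTCFL-KD, while the diamonds stay near 0.

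In CTCFL-KD, 25 carriers rose and 3 fell. The 4 largest rises were in the endosomal sodium-proton exchanger SLC9A9, the phosphate importer SLC20A2, SLC12A8 and the zinc carrier SLC39A11, and the falls were in the sulfate carrier SLC26A2, the chloride channel SLC26A9 and SLC12A3. SLC9A9 was scarce in Control and passed the filter on low counts only through CTCFL-KD, where it was high. With the threshold on adjusted p at 0.05, 28 of the 67 carriers (41.8%) were called against 23.2% of all 17794 genes. In the higher direction these shares were 37.3% of the carriers and 15.3% of all genes, and in the lower direction 4.48% and 7.94%. On adjusted p alone 36 carriers passed (33 higher), against 38.2% of all genes. A positive log2 fold change was found in 55 carriers (82.1%, against 53.7% of all genes). The median log2 fold change was 0.73 against 0.08 for all genes, and the libraries lay entirely above Control in 42 carriers (62.7%, against 28.7% of all genes) and entirely below in 8 (11.9%, against 27.6%). The summed level of the 88 carriers was 4763, 5862 and 6240 CPM in CTCFL-KD, above the Control range in each library. The epithelial markers were also above their Control range in each of these libraries (10185 CPM or more in sum), and their part in the result was not tested.

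Counts per family, here and below, rest on few genes and stand against 15.3% of all genes called higher and 7.94% called lower. Among the phosphate carriers, 2 of 4 tested rose and none fell. SLC20A2 (chr8:42416475-42541926, minus strand), the sodium-phosphate importer PiT-2, had 76.1, 73.8 and 77.8 CPM in Control, 68.6, 86.8 and 139.9 under CTCFL-OE and 293, 331 and 325 under CTCFL-KD. Its CTCFL-KD libraries lay far above the other 6 and close together, and the log2 fold change was 2.06 ± 0.25 (adjusted p = 1.5e-04). Its paralog SLC20A1 (PiT-1) did not pass, at -0.15 (adjusted p = 0.66). SLC34A2 passed narrowly, with 892, 937 and 946 CPM in Control, 1507, 1989 and 2069 in CTCFL-KD and a log2 fold change of 1.003 ± 0.25 (adjusted p = 0.010). SLC34A2 was called in 3 of the 6 fits that left out a library of these groups, and in 0 of those that left out a CTCFL-OE library. It was called in 5 of the 10 other settings. DESeq2, the fit without the filter on low counts and the replicate block were among those that lost it.

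The anion exchangers SLC26 were split, with 1 of 6 tested higher, which is near the share of all genes, and 2 lower. SLC26A2 (chr5:149960758-149993455, plus strand), which supplies sulfate for proteoglycan sulfation, fell from 148, 154 and 162 CPM to 22.2, 43.2 and 50.01, a log2 fold change of -2.01 ± 0.33 (adjusted p = 0.0010). SLC26A9 (chr1:205913048-205943460, minus strand) fell from 1.95, 2.33 and 1.37 CPM to 0.541, 0.476 and 0.383 (-2.03 ± 0.35, adjusted p = 0.0014). SLC26A11, a sulfate and chloride carrier of lysosomes and other membranes (chr17:80219699-80253500, plus strand), rose from 8.11, 6.99 and 7.39 CPM to 30.03, 23.2 and 24.4 (1.78 ± 0.28, adjusted p = 7.4e-04). None of the 3 overlapped between the groups. SLC26A7 passed on adjusted p but not on fold (0.96 ± 0.34, adjusted p = 0.048).

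Of the bicarbonate transporters SLC4, 2 of 8 tested rose and none fell, which is near the 15.3% and 7.94% of all genes called higher and lower. SLC4A11 (chr20:3227417-3239559, minus strand) had 17.4, 16.2 and 15.5 CPM in Control and 73.7, 46.02 and 49.1 in CTCFL-KD (1.78 ± 0.21, adjusted p = 1.2e-04). SLC4A10 (chr2:161424332-161985282, plus strand), a sodium-driven bicarbonate carrier known from neurons, had 7.36, 8.005 and 8.26 CPM in Control, 15.6, 15.3 and 16.8 under CTCFL-OE and 10.2, 32.8 and 40.6 under CTCFL-KD (1.83 ± 0.38, adjusted p = 0.0039). The replicates of CTCFL-KD were uneven here, with replicate 1 just above Control, and 5.10% of the exon length is shared with another gene on the same strand.

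The cation-chloride cotransporters SLC12 had 5 of 8 tested higher and 1 lower. SLC12A8 (chr3:125082636-125212864, minus strand), an unusual member of the family that has been reported to carry nicotinamide mononucleotide, rose from 16.03, 14.96 and 13.7 CPM to 62.6, 57.7 and 58.99 (2.002 ± 0.27, adjusted p = 2.9e-04), in libraries that did not overlap. Among the others that rose were the potassium-chloride cotransporters SLC12A5 (1.09 ± 0.36) and SLC12A4 (1.07 ± 0.23), and SLC12A9 (1.33 ± 0.28). SLC12A3 had 15, 30 and 17 counts in Control and 0, 3 and 5 in CTCFL-KD (adjusted p = 0.038), and it was called in only 1 of the 6 fits that left out a library of these groups (adjusted p of up to 0.097). The sodium-potassium-chloride cotransporter SLC12A2 (NKCC1), which brings chloride in, did not pass (-0.36 ± 0.32, adjusted p = 0.39), nor did SLC12A7.

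In the sodium-proton exchangers SLC9, 2 of 11 tested rose and none fell, a share near the 15.3% of all genes called higher. SLC9A9 (chr3:143265222-143848485, minus strand), which regulates the pH of endosomes, was scarce in Control, with 4, 7 and 2 counts, against 6, 12 and 6 under CTCFL-OE and 16, 27 and 24 under CTCFL-KD, or 1.45 ± 0.146 CPM. The rise in CTCFL-KD was of 2.84 ± 0.42 log2 units (adjusted p = 4.6e-04). SLC9A9 was tested only because the CTCFL-KD libraries, where it was high, passed the filter on low counts. In the sodium-calcium exchangers, 2 of 5 tested rose, SLC24A3 (chr20:19212642-19722926, plus strand) from 0.701, 0.738 and 0.355 CPM to 1.89, 2.20 and 2.14 (1.77 ± 0.31, adjusted p = 0.0013) and SLC24A1 at 1.08 ± 0.24. SLC24 proteins exchange potassium along with calcium for sodium. SLC8A1 did not pass in CTCFL-KD (0.55 ± 0.28, adjusted p = 0.15).

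**Figure D4:**
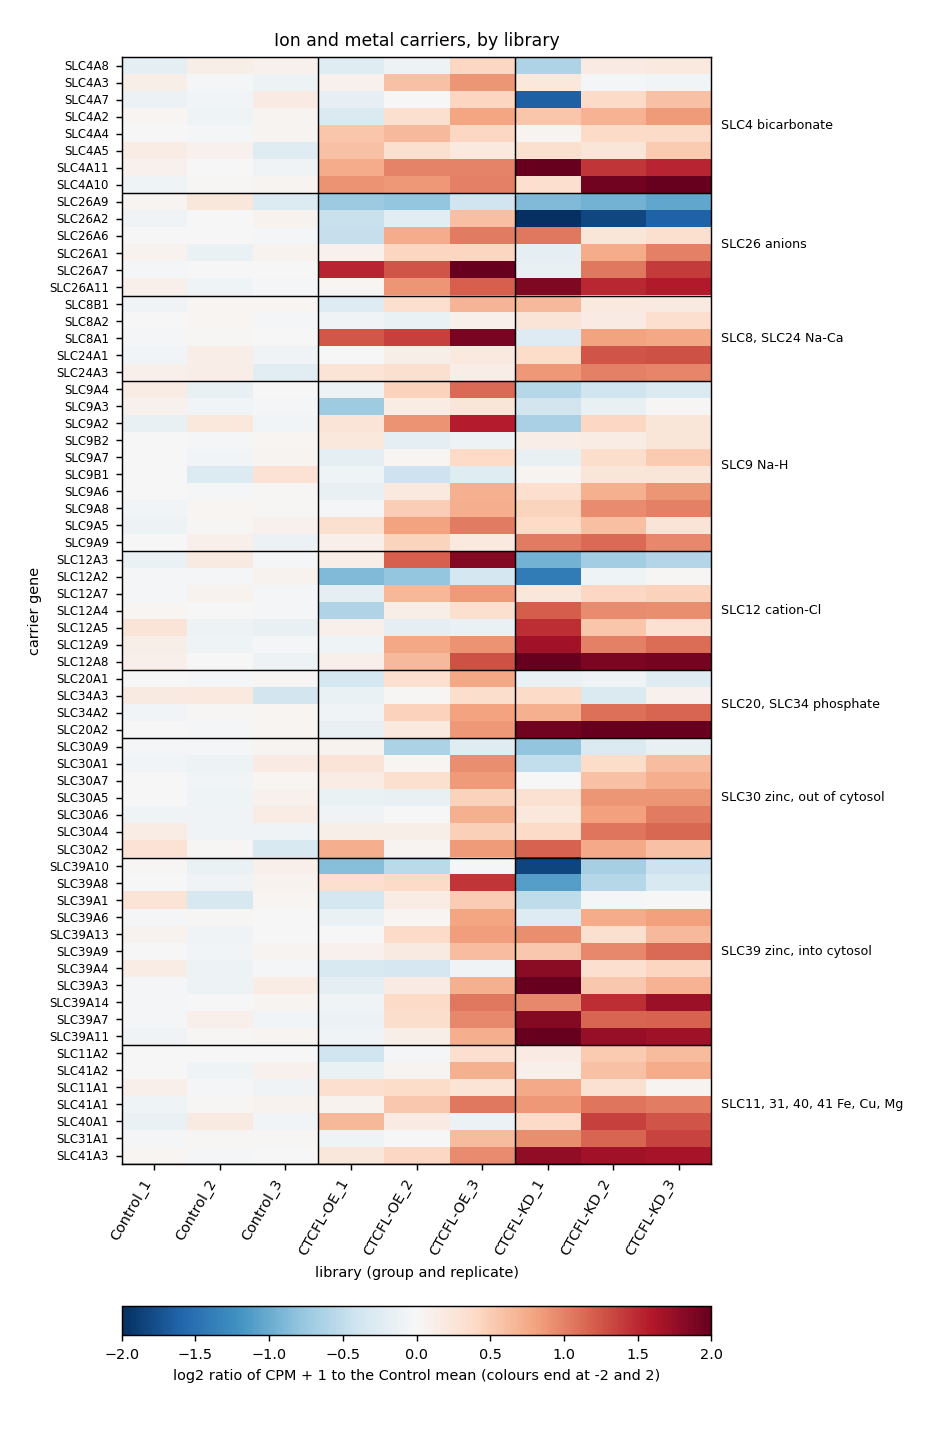
Log2 ratio of CPM + 1 to the Control mean (colour, red higher and blue lower, ending at -2 and 2) for 65 of the 67 tested carriers (rows, by role and then by log2 fold change in CTCFL-KD) in the 9 libraries (columns). SLC26A2 and SLC26A9 are blue in every CTCFL-KD library, CTCFL-KD replicate 1 differs from replicates 2 and 3 in many rows, and CTCFL-OE replicate 3, the highest of its group in 57 carriers, is the reddest column of CTCFL-OE.

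Zinc carriers that load the cytosol had 5 of 11 tested SLC39 genes higher and none lower. SLC39A11 (chr17:72645949-73092712, minus strand), a zinc carrier of internal membranes, rose from 14.3, 15.3 and 15.7 CPM to 65.8, 52.8 and 51.3 (1.90 ± 0.23, adjusted p = 1.4e-04). SLC39A7 (chr6:33200305-33204439, plus strand) rose from 85.7, 94.7 and 85.1 to 319, 199.5 and 201 CPM (1.44 ± 0.29, adjusted p = 0.0029). SLC39A14 rose from 142 ± 5.01 to 382 ± 96.5 CPM (1.43 ± 0.29, adjusted p = 0.0033), and SLC39A3 (1.42 ± 0.42) and SLC39A4 (1.05 ± 0.35) were also called. SLC39A10 and SLC39A8, both importers at the cell surface, were at -0.86 ± 0.33 and -0.63 ± 0.30 and did not pass (adjusted p = 0.061 and 0.12). Of the 7 tested SLC30 genes, which remove zinc from the cytosol, SLC30A2 (1.17 ± 0.36) and SLC30A4 (1.07 ± 0.25) rose and none fell. Both rose from under 5 CPM in Control, and 2 of 7 is near the 15.3% of all genes called higher. SLC30A9, the highest of them in Control, did not pass (-0.39 ± 0.22, adjusted p = 0.19). SLC39A1 was counted at only 2.77 ± 0.764 CPM in Control, and 60.8% of its exon length is shared with another gene on the same strand, so its level is uncertain.

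The iron, copper and magnesium carriers had 4 of 7 tested higher and none lower. SLC41A3 (chr3:126006357-126101561, minus strand), a mitochondrial magnesium carrier, rose from 21.9, 21.1 and 21.2 CPM to 75.1, 70.99 and 68.9 (1.74 ± 0.20, adjusted p = 1.2e-04), in libraries that were close together within each group. SLC31A1, the copper importer CTR1 that also admits platinum drugs, rose from 29.2, 30.3 and 30.3 CPM to 58.2, 67.96 and 77.7 (1.18 ± 0.22, adjusted p = 0.0019). SLC40A1, the iron exporter ferroportin, rose from 5.41, 6.96 and 5.77 CPM to 8.12, 17.0 and 15.7 (1.18 ± 0.30, adjusted p = 0.011), with replicate 1 the lowest of CTCFL-KD. SLC41A1 passed on fold by a margin below the rounding, at 1.0003. The iron importer SLC11A2 (DMT1) did not pass (0.46 ± 0.21, adjusted p = 0.11). The promoter stretch printed for SLC31A1 holds a pair of copies of AGGGGGC.

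Without CTCFL-KD replicate 1, 27 carriers were called against 22.1% of all genes, and 22 of the 28 remained. The 6 that were lost were SLC30A2, SLC39A3, SLC39A4, SLC12A3, SLC12A4 and SLC12A5. SLC39A4, the zinc importer of the intestine, had 70.5, 25.03 and 26.8 CPM in CTCFL-KD against 21.7, 18.2 and 18.9 in Control and came to a log2 fold change of 0.41 without that library, SLC39A3 came to 0.67 and SLC12A5 to 0.59. The 5 that were gained were SLC26A1, SLC26A7, SLC39A9, SLC4A4 and SLC9A8, with SLC26A7 at 1.30 ± 0.20 (adjusted p = 0.00051) and SLC4A4 at 1.20 ± 0.36 (adjusted p = 0.018). SLC8A1 then had 0.83 ± 0.18 (adjusted p = 0.0038) and stayed under the fold threshold. Of the 28 calls, 18 held whichever 1 of the 6 Control and CTCFL-KD libraries was left out, and 15 held under every setting tried. Same-numbered Control and CTCFL-KD libraries deviated together, and with the replicate number as a block 25 of the 28 were called, without SLC34A2, SLC39A4 and SLC41A1.

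**Figure D5:**
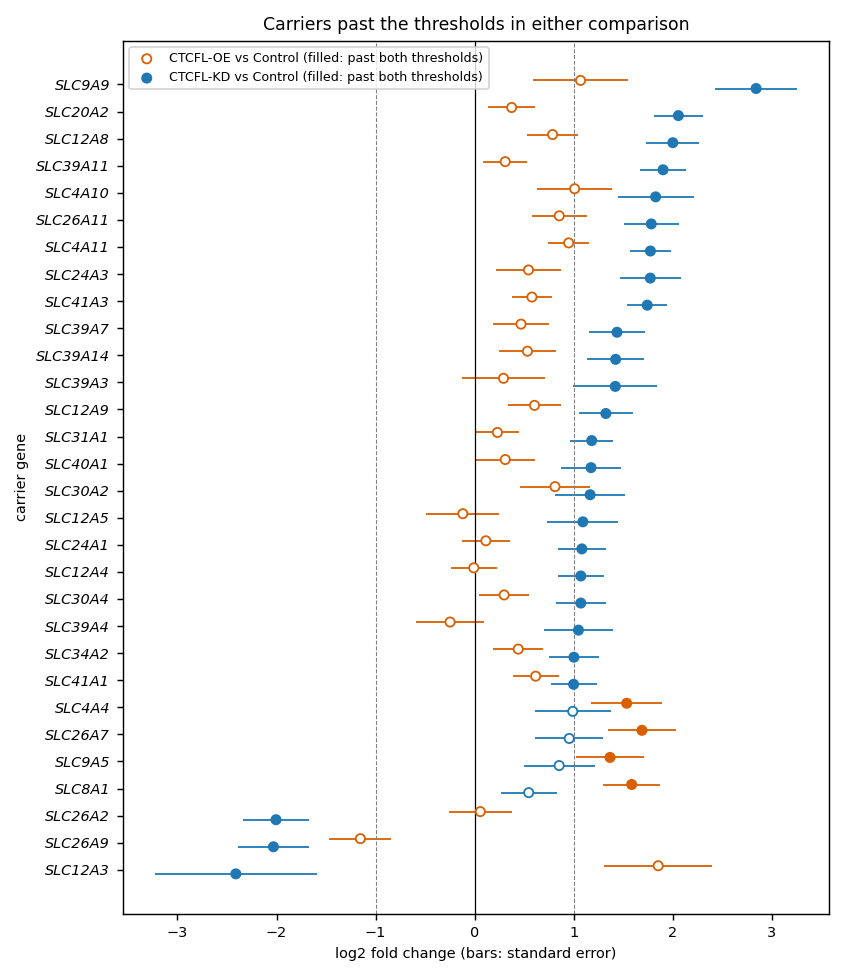
Log2 fold change against Control (horizontal axis, with standard errors) of 30 of the 32 carriers called in CTCFL-OE or CTCFL-KD, with filled symbols for calls and dashed lines at -1 and 1. Filled symbols for CTCFL-KD are at the top and bottom and those for CTCFL-OE belong to SLC4A4, SLC26A7, SLC9A5 and SLC8A1. Both comparisons use the same Control libraries.

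Genes that work with these carriers were read from lists made by function, and their counts stand against 15.3% of all genes called higher and 7.94% called lower in CTCFL-KD. Of 11 tested pumps for sodium and potassium, calcium or copper, 4 rose in CTCFL-KD and none fell, among them the copper exporters ATP7A (1.68 ± 0.38) and ATP7B (1.55 ± 0.33) and the calcium pump ATP2B4 (1.07 ± 0.26). In the list on iron and copper handling, the metalloreductases STEAP1 (3.19 ± 0.36) and STEAP2 (2.91 ± 0.40) rose and the ferritin heavy chain FTH1 (-2.15 ± 0.25) and STEAP4 (-1.58 ± 0.23) fell, of 17 tested. FTH1, which stores iron, went from 3236, 2796 and 3157 CPM in Control to 903, 606 and 562 in CTCFL-KD, and the transferrin receptor TFRC did not pass (0.64 ± 0.30, adjusted p = 0.11). Of 11 WNK kinases and regulators of SLC12 proteins, WNK2 rose (1.81 ± 0.18) and CAB39, an activator of the kinases downstream of WNK, fell (-1.15 ± 0.20). The manganese pump ATP13A1 (1.16 ± 0.26) and the zinc exporter TMEM163 (1.004 ± 0.31) rose among 7 genes of zinc and manganese response, the pyrophosphate exporter ANKH (1.55 ± 0.17) among 5 of phosphate handling, and 0 of 11 carbonic anhydrases and exchanger partners were called by edgeR in the fit to all 9 libraries, although 4 had an unadjusted p below 0.05. The carbonic anhydrase CA9 was not among these 11, since the filter on low counts left it out there. It was called in CTCFL-KD by DESeq2 and by edgeR without the filter or on the pair of groups alone. All 9 leave-one-out fits also called CA9, and 2 of them CA14. With 1 library left out, the filter asks for counts in fewer libraries, and CA9 was tested in those fits. Its calls there are no check on the reported fit. In CTCFL-OE, where 2.07% of all genes were called, the number of calls over these lists was near that share. The only call was the carbonic anhydrase CA12, at 1.20 ± 0.30 (adjusted p = 0.087). It was not called in 7 of the 9 fits that left out a library, where its log2 fold change was lowest, at 0.68, without CTCFL-OE replicate 3, and among these 9 it was called without CTCFL-OE replicate 1 and without CTCFL-KD replicate 1.

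Set directly against CTCFL-KD, 15 carriers differed in CTCFL-OE, 5 higher and 10 lower, at an adjusted p below 0.05 and the same fold. This was 22.4% of the 67 carriers against 17.0% of all genes, with 7.46% against 6.42% higher and 14.9% against 10.6% lower. Higher in CTCFL-OE were SLC12A3 (4.27 ± 0.74), SLC26A2 (2.06 ± 0.33), SLC39A8 (1.45 ± 0.31), SLC9A4 (1.22 ± 0.33) and SLC8A1 (1.04 ± 0.28). SLC39A8 (chr4:102251080-102431258, minus strand) had 124, 119 and 132 CPM in Control, 158, 163 and 338 under CTCFL-OE and 57.5, 84.1 and 100.3 under CTCFL-KD (adjusted p = 0.0062), so that Control lay between the treated groups without overlap on either side. SLC12A3 had the same order of means, at 0.926 ± 0.215, 3.44 ± 2.37 and 0.151 ± 0.139 CPM, although its Control and CTCFL-OE libraries overlapped. SLC9A4, a sodium-proton exchanger of the stomach, had 3.92, 6.27 and 10.6 CPM under CTCFL-OE and 2.53, 2.97 and 3.29 under CTCFL-KD, and it was not called without CTCFL-OE replicate 3. SLC8A1 was not called without that library or without CTCFL-KD replicate 1, where it came to 0.76, nor with the length trend removed (0.96), with the replicate block and the length trend removed (0.95), or in edgeR on this pair of groups alone (adjusted p = 0.068).

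The carriers lower in CTCFL-OE than in CTCFL-KD included SLC9A9 (-1.77 ± 0.38), SLC20A2 (-1.68 ± 0.25), SLC39A11 (-1.59 ± 0.23), SLC39A4 (-1.30 ± 0.35), SLC24A3 (-1.23 ± 0.30), SLC12A8 (-1.21 ± 0.26), SLC12A5 (-1.21 ± 0.36), SLC41A3 (-1.16 ± 0.20) and SLC12A4 (-1.08 ± 0.23). SLC12A5, the potassium-chloride cotransporter of neurons, had 2.42, 1.78 and 1.91 CPM under CTCFL-OE and 7.85, 3.69 and 2.96 under CTCFL-KD, where replicate 1 stood above the others. SLC12A4, SLC12A5 and SLC39A4 were not called without CTCFL-KD replicate 1, whereas SLC24A1 (-1.22), SLC31A1 (-1.05), SLC39A14 (-1.07), SLC40A1 (-1.12) and SLC4A10 (-1.21) were then called lower in CTCFL-OE. SLC26A7 did not differ beyond the thresholds between the treated groups (0.73 ± 0.34, adjusted p = 0.13). Of the 15 calls, 8 held whichever 1 of the 6 libraries was left out and 5 under every setting tried.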

How the data were processed

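Polyadenylated RNA of OVCAR3 was sequenced as stranded paired-end libraries, with technical replicates pooled by the authors within each replicate. Per the labels, reads were trimmed with Trimmomatic and the deposited values are raw counts per gene on GRCh38. The study's methods name STAR and featureCounts, and the submitters' processing notes name featureCounts and kallisto. Which annotation was used, whether strand was counted and how multi-mapped reads were handled is not given in the sources used here. The 9 library files equalled the columns of the count matrix. Of 60660 identifiers, 60419 were named by GENCODE 44, whose coordinates and exon lengths are used.

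Counts were fitted with edgeR 4.0.16 in R 4.3.3 (TMM scaling, filterByExpr, robust quasi-likelihood F test, condition as the only term, all 9 libraries), which left 17794 genes. Adjusted p-values are Benjamini-Hochberg over these genes. CPM uses TMM-scaled totals, and ratios per library use CPM + 1. Totals of 14332622 to 24490080 counts allow a gene with 0 counts a level of up to 0.122 to 0.209 CPM (3 counts per library), for counting error only. The procedure was tested on simulated data.

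Values per library are given for SLC26A7, SLC8A1, each carrier called in CTCFL-OE, and the 12 called carriers of largest fold change with at least 1 CPM in a group and no overlap in the other comparisons. Further carriers called are given by log2 fold change, the highest carrier of each role by level, the 3 nearest the CTCFL-OE threshold by test, and partner genes where called. Other carriers named for comparison (such as SLC20A1, SLC12A2, SLC39A10, SLC30A9 and SLC11A2, with TFRC among the partners) and the levels of SLC34A2, SLC40A1, SLC31A1, SLC12A1 and SLC26A4 were chosen after their values were seen. Some genes that the counts include are not reported here by name. The carriers and lists were chosen with earlier results of these data known.

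Same-numbered Control and CTCFL-KD libraries deviated together over 12000 genes (correlations of 0.37, 0.22 and 0.26), so the replicate block is given for that comparison. The labels give separate replicates, and p-values measure the spread between these samples. DESeq2 1.42.0, other scalings and filters, length correction and leaving out each library were tried.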

Additional observations from a re-analysis of the deposited data

How the results depend on the processing

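For CTCFL-OE against Control, the 4 carriers called (4 higher, 0 lower) became 7 with DESeq2 (1 lower), 8 with edgeR on the pair of groups alone (7 higher, 1 lower), 8 without a filter on low counts (7 higher, 1 lower), 7 with the length trend removed (1 lower) and 7 with the replicate block and the length trend removed (7 higher). The share called among all genes, 2.07% as reported, was 1.44%, 4.88%, 2.18%, 3.44% and 2.88% in these 5 fits. With at least 10 counts required in every library 3 remained (5.0% of the carriers tested, against 1.84% of all genes), since SLC4A4 was no longer tested. With the replicate block alone 2 remained, both higher, and SLC4A4 (adjusted p = 0.107) and SLC9A5 (adjusted p = 0.101) were lost. These 2 were 2.99% of the carriers tested, near the 1.7% of all genes. Leaving out 1 library at a time gave 0 to 10 calls (0 to 9 higher, 0 to 1 lower), with 0.24% to 6.45% of all genes called. The median log2 fold change was then 0.14 to 0.51, with 1.45 to 1.85 for SLC26A7 and 1.35 to 1.71 for SLC8A1. The cause was not tested. For CTCFL-KD against Control, the 28 calls came to 24 to 29 under the other settings and to 23 to 27 leaving out 1 library (21 to 25 higher, 2 to 4 lower), with a median of 0.63 to 0.79. With at least 10 counts required in every library 1 carrier was called lower instead of 3, since SLC26A9 and SLC12A3 were no longer tested, and the rises of SLC9A9 and SLC24A3 were lost in the same way. For CTCFL-OE against CTCFL-KD, edgeR on the pair of groups alone called 10 carriers instead of 15, with 3 higher, which is 15.2% of those tested and near the 13.6% of all genes. Leaving out 1 library gave 12 to 17 (3 to 6 higher, 6 to 14 lower). These were 17.9% to 25.4% of the carriers tested, where 13.9% to 18.6% of all genes were called.

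Replicate numbers did not pair CTCFL-OE with Control (correlations of -0.05, 0.22 and -0.05) or with CTCFL-KD (0.002, 0.078 and 0.017). The replicate block kept 15 calls between the treated groups, where 16.7% of all genes were called. For CTCFL-KD against Control the block gave 25 calls, and 26 with the length trend also removed, where 22.6% of all genes were called in each fit. Carriers with a few counts per library, such as SLC4A4, SLC9A9, SLC12A3 and SLC24A3, are limited by depth. Of the 21 carriers under the filter on low counts, SLC12A1 was called in CTCFL-KD by DESeq2 and by edgeR without that filter.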
